A study of Mus musculus with 4 samples.

Results

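Molar tooth germs of mouse embryos at day 18 of gestation (E18) were compared with those at day 16 (E16), which spans the step from the early to the late bell stage of the first molar. The samples were pooled whole germs of the first molar of the mandible from C57BL/6 embryos, with no treatment or altered allele in any group. RNA of E18 or of E16 carried the red dye Cy5 and was hybridised with RNA of E14 germs in the green dye Cy3, on 1 two-colour 60-base oligonucleotide array per stage. E11 and E12 germs were hybridised against E14 in the same way on another slide and serve here only to show the course over the stages. The comparison is the log2 ratio of E18 over E14 minus that of E16 over E14 for each probe, so the E14 sample, which both arrays share, and any constant dye effect cancel. All 24050 probes that stood well above background in Cy5 at E18, at E16 or at both, of 41174 on the array, were taken, and these measured 16197 of 27670 genes. A gene is represented by its brightest measured probe.

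There was 1 pool per stage, of a size not given in the sources used here, and dyes were not swapped. No test can therefore be made and no p-value is given: every difference is between these pools, and a gene is called when the pools were at least 2-fold apart. Technical error was read in several ways. The E14 channel of the E18 array differed from that of the E16 array by an SD of 0.093 log2 units over the 16197 genes, with 95% of genes within 0.15. The scanner software's own error of the difference, combined over both arrays, was larger, 0.30 to 1.05 log2 units, with a median of 0.38, for the called genes above background on both arrays. Values marked "±" below are this scanner error, which does not include the spread between embryos or pools. It was computed for the scanner software's own log ratios, not for the ratios made here, so it is only a rough guide to their error.

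In the bell stage the enamel organ, the epithelial part of the germ, folds into the shape of the crown. Its inner layer gives rise to ameloblasts, which secrete enamel proteins, and the facing layer of the neural-crest-derived dental papilla gives rise to odontoblasts, which secrete dentin. Sonic hedgehog, Wnt, FGF and BMP signals pass between the epithelium and the mesenchyme throughout. Above the germ lies the oral epithelium, a stratified epithelium with keratinizing cells.

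Between E18 and E16, 85 genes were at least 2-fold higher at E18 (0.525% of the 16197) and 153 were at least 2-fold lower (0.945%), together 238 genes (1.47%). For comparison, 12 genes (0.0741%) were at least 2-fold apart between the E14 channels of the same 2 arrays. That count compares single channels, whereas the calls compare ratios of both channels, so it is not a like measure of their error. The median difference of all genes was -0.01 log2 units, and 90% of genes lay between -0.49 and 0.42. With median centring of each array in place of the intensity-dependent loess, the median of all genes moved to -0.32 and the split to 43 genes higher and 616 lower, so that 6.53% rather than 35.7% of the called genes were higher at E18. The E18 array was the dimmer one: the median Cy5 signal was 51.5 at E18, against 67.5 at E16, over a median background of 31.0 on both, and 52.5% of probes at E18, against 57.8% at E16, were well above background. Its part in the split between higher and lower genes was not tested. Of the called genes, 82 higher and 141 lower ones stood above background on both arrays. Just inside the 2-fold line, within 0.05 log2 units, lay 24 genes, and 27 lay just outside it. Counts of called members in the gene lists below stand against the shares of all genes, 0.525% higher and 0.945% lower. In lists of at most 54 measured genes, a count of 0 lies near those shares.

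**Figure D1:**
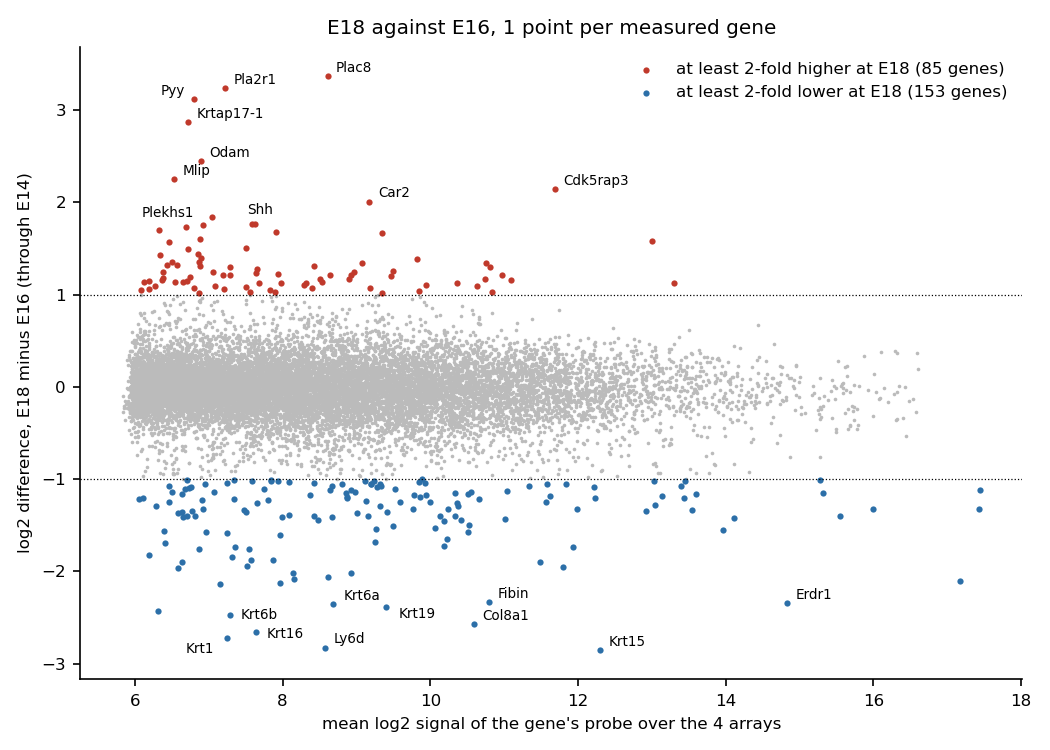
Difference between E18 and E16 in log2 units (y axis, positive where E18 is higher) against the mean log2 signal of the gene's probe over the 4 arrays (x axis), 1 point per measured gene. Red points are the 85 genes at least 2-fold higher at E18 and blue points the 153 at least 2-fold lower, dotted lines mark the 2-fold limits, and the 10 leading genes each way are named.

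The genes with the largest difference upwards were Plac8, Pla2r1, Pyy, Krtap17-1 and Odam, of which Odam encodes a protein secreted by ameloblasts at the tooth surface. The RefSeq promoter table (build GRCm38.p6) held entries for 6 of the 10 genes looked up, the 5 that led each way. The 100 bases before the transcription start are shown for the 5 that led upwards, because they had the largest differences in that direction. For Plac8 and Pyy, which have 2 annotated starts, 1 start is shown. All are written 5′ to 3′ on the strand of the gene, and capitals mark the motif TATAAA.
Plac8, chr5:100572206-100572305, minus strand: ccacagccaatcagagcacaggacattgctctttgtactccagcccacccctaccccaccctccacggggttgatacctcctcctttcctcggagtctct
Pla2r1, chr2:60553309-60553408, minus strand: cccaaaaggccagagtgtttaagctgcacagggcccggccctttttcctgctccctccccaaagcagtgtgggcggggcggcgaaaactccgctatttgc
Pyy, chr11:102107777-102107876, minus strand: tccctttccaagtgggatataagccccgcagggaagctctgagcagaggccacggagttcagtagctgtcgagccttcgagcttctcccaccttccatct
Krtap17-1, chr11:99993995-99994094, minus strand: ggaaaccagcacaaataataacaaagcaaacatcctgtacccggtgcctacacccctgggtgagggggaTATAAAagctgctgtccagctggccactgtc
Odam, chr5:87884910-87885009, plus strand: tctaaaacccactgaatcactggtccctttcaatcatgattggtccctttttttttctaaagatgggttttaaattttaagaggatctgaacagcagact

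The letters TATAAA, searched on both strands with no overlap with another motif considered, occurred among these windows in that of Krtap17-1, where the first base lies at position -31 from the start. Over all 32851 windows of the same length in the table, 5.56% held the motif on either strand. The match is a description of the sequence and carries no statement about a factor.

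Among the genes that led upwards, Plac8 stood at 5.30 log2 units over E14 at E18, against 1.92 at E16, a difference of 3.37 ± 0.66, or 10.4-fold. Its probe lies at chr5:99768632-99768691 in build mm7, the build of the array's own annotation, which is also that of the probe positions below. Place within the transcript was not analysed here. Pla2r1, a receptor for secreted phospholipases, stood at 4.23 at E18, against 0.99 at E16, a difference of 3.24 ± 0.65 at chr2:60350251-60350310. The E14 channel itself differed by 0.68 between the 2 arrays at this probe, more than at 95% of genes.

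Pyy, which encodes the gut hormone peptide YY, stood at 3.35 at E18, against 0.23 at E16, a difference of 3.12 ± 0.60 (chr11:102215715-102215774), while its second probe gave 1.18. The keratin-associated protein gene Krtap17-1 stood at 3.94 at E18, against 1.07 at E16, a difference of 2.87 ± 0.78 (chr11:100102381-100102440). Odam stood at 2.45 at E18, against 0.01 at E16, a difference of 2.45 ± 0.44 (chr5:87830759-87830818). Thus Odam and Pyy were near their E14 level at E16, whereas Plac8, Pla2r1 and Krtap17-1 were already above E14 at E16.

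The other 10 of the 15 leading genes lay between 1.67 and 2.25 log2 units higher at E18. They include Car2, a carbonic anhydrase (2.80 over E14 at E18, against 0.79 at E16, a difference of 2.01 ± 0.41), and Shh, the ligand of the hedgehog pathway (4.03 at E18, against 2.27 at E16, a difference of 1.77 ± 0.62). Adgrf4, an adhesion G-protein-coupled receptor, stood at 3.57 at E18, against 1.81 at E16, and Col22a1, a collagen of tissue junctions, at 3.53 at E18, against 1.77 at E16. Prkg2, a cyclic-GMP-dependent kinase, was below its E14 level at E16 and above it at E18 (1.56 at E18, against -0.18 at E16). The probe shown for Cdk5rap3 gave a difference of 2.15, while a second probe of the gene gave 0.18, so that the gene's 2 probes did not give the same call. The same holds for Vat1l, whose 3 probes ranged from 0.45 to 1.67, and for Plekhs1, whose 2 probes gave 0.84 and 1.84. Both probes of Mlip (1.28 and 2.25), Ctnna2 (1.43 and 1.68) and Col22a1 (1.77 and 2.11) lay past 2-fold.

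**Figure D2:**
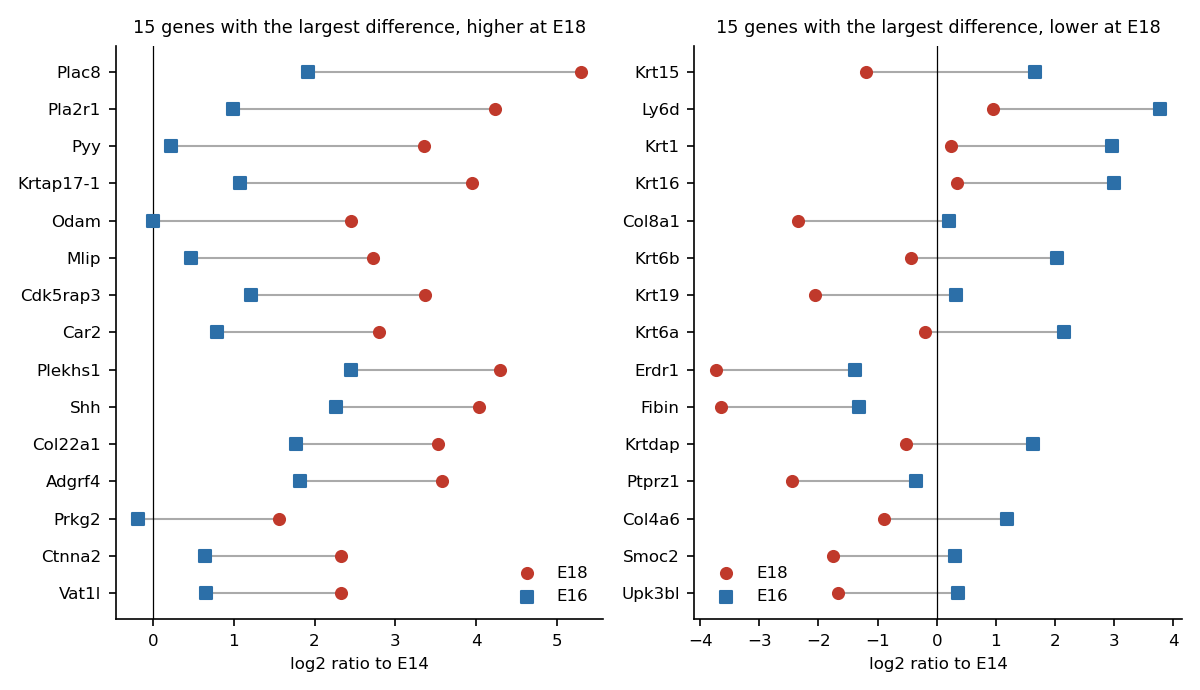
Log2 ratio to E14 (x axis) at E18 (red circles) and at E16 (blue squares) of the 15 genes with the largest difference higher at E18 (left) and lower at E18 (right), among genes above background on both arrays, with 1 pool per stage. Most genes of the left panel lie above E14 at both stages, and the keratin genes Krt1, Krt16, Krt6b and Krt6a of the right panel lie 2.04 to 2.99 above E14 at E16 and near E14 at E18.

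Of the 15 leading genes downwards, 6 were keratins. Krt15, a keratin of basal cells of stratified epithelia, stood at -1.20 at E18, against 1.66 at E16, a difference of -2.86 ± 0.34, or 7.24-fold lower (chr11:100241065-100241124). Ly6d, a surface protein of stratified epithelium, stood at 0.95 at E18, against 3.77 at E16 (-2.83 ± 0.48, chr15:74842671-74842730), with the E14 channel apart by -0.69 between the arrays. Krt1, a keratin of differentiating layers, stood at 0.24 at E18, against 2.96 at E16 (-2.72 ± 0.46, chr15:101831833-101831892). All 3 genes were above E14 at E16, and at E18 Krt15 was below E14 while Ly6d and Krt1 remained above it.

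Krt16, Krt6b and Krt6a, keratins of stratified epithelia, were 2.65, 2.47 and 2.35 lower at E18, and Krt19, of simple and basal epithelial cells, 2.39 lower. Krt6a and Krt6b are near-identical copies, so their probes may share signal and the 2 values are not separate measurements. Krtdap, a protein of differentiating keratinocytes, was at -0.51 at E18, against 1.62 at E16, with both probes past 2-fold (-2.13 and -1.96). Outside the epithelial genes, the collagen gene Col8a1 stood at -2.35 at E18, against 0.21 at E16 (-2.57 ± 0.37). Fibin (-3.65 at E18, against -1.32 at E16) and Erdr1 (-3.73 at E18, against -1.38 at E16) were lower than in E14 at both stages. Smoc2, a matrix-associated calcium-binding protein, was 2.06 lower and Upk3bl 2.02 lower, and their second probes gave -1.80 and -1.77.

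For Col4a6, a basement membrane collagen, the probe shown was 2.08 lower at E18, but the gene's 3 probes ranged from -2.08 to -0.18. For Ptprz1, a receptor tyrosine phosphatase, the 4 probes ranged from -2.10 to 0.03, and the E14 channel at the probe shown differed by 1.05 between the arrays. Of the 81 called genes with more than 1 probe, 23 had every probe past 2-fold and 6 had probes of both signs. No gene had probes at least 2-fold apart in opposite directions. In 11 of the 238 called genes the E14 channels differed by at least 0.5 log2 units: AK037592, Cacna1a, Igfbpl1, Krt6a, Lars2, Ly6d, Pigt, Pla2r1, Ptprz1, TC1468120 and Vgll2. With the Cy5 channels alone, AK037592, Lars2 and Pigt differed by -0.01, -0.03 and 0.03, against calls of 1.43, -1.33 and -1.12. Cacna1a and TC1468120 differed by -0.47 and -0.28, against calls of 1.71 and 1.06. The others kept their sign and lay past 2-fold.

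Genes above background on 1 of the 2 arrays are given as a bound on the measured signals. The bound leaves out the scanner error, which ran from 0.43 log2 units for Hdc to 2.12 for AK050941 among the genes named here. Where the dim probe's own signal set the bound, it can equal the measured fold, as for Kcne2, Dmrt2, Idi2 and Hdc. At E18, Cyp2f2, a cytochrome P450, was at least 4.82-fold lower than at E16, the transcription factor gene Dmrt2 at least 4.36-fold and Idi2, an isoprenoid isomerase, at least 3.72-fold. Krt4, a keratin of the mucosal suprabasal layers, was at least 3.46-fold lower, Isl1, a transcription factor of incisor epithelium in mice, at least 2.92-fold and Hdc, histidine decarboxylase, at least 2.65-fold. In the other direction Kcne2, a potassium channel subunit, was at least 2.07-fold higher at E18, and the next 7, Slc7a11, Nefl, Usp18, Serpina1d, AK050941, Cldn17 and Lrrc4c, at least 1.47-fold to 1.71-fold. The scanner error was 2.11 for Cyp2f2, 1.92 for Isl1 and 1.67 for Krt4, against differences of -2.43, -1.56 and -1.82. For Kcne2 it was 1.36, against a difference of 1.05. It was smaller for Dmrt2, at 0.71, and Idi2, at 0.51. More genes stood above background only at E16 (1426) than only at E18 (175).

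Genes of the cornified layer and of keratinizing epithelium gave the lowest median of 36 gene lists. Of the 28 measured members, 15 were at least 2-fold lower at E18 and 0 higher, with a median difference of -1.09, against -0.01 over all genes and 0.945% of all genes lower. Besides the keratins above, these were Calml3, a calmodulin-like protein of keratinocytes (-0.31 at E18, against 1.63 at E16), Krt13, a mucosal keratin (-1.30, its second probe -4.27), the envelope precursor Sprr3 (at least 2.18-fold lower) and Aldh3b2, Sbsn, Cnfn, Dsg1a and Sprr1a (-1.33 to -1.08). The other 13 lay under 2-fold, 8 of them below 0, among them Spink5 (-0.69), a protease inhibitor, and the crosslinking enzyme Tgm1 (-0.41). Lor, loricrin, a main envelope protein, had a difference of 0.11, and Tchh, trichohyalin, the highest, 0.71. Krt10, the partner of Krt1, was at -0.68 on one probe and -1.22 on the other. Ivl, involucrin, was not well above background at either stage.

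The wider list of epithelial keratins and junction proteins had 43 measured members and a median of -0.34. At E18, 5 of them were at least 2-fold lower and 0 higher, against 0.945% and 0.525% of all genes. The 5 were Krt15, Krt19, Krt23 (-1.73), Krt8 (-1.26) and the desmosomal plakophilin Pkp1 (-1.08). Krt5 and Krt14, the keratin pair of basal cells, were -0.52 and -0.83 apart. Markers of the epithelium at large were closer to even. Epcam was at 1.59 over E14 at E18, against 1.31 at E16, and Cdh1, E-cadherin, at 1.26 at E18, against 1.36 at E16. Whether the pools held different amounts of oral epithelium was not tested. In whole germs, fewer cells of a type and less RNA per cell cannot be told apart.

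Of 32 measured transcription factors of the jaw and dental mesenchyme, 5 were at least 2-fold lower at E18, 1 was higher and 26 lay under 2-fold, with a median of -0.45. Over all genes, 0.945% were at least 2-fold lower and 0.525% higher. A difference below 0 was seen in 27 of the 32 factors, against 52.0% of all genes. Pax9, which is required for tooth development past the bud stage in mice, stood at -2.71 at E18, against -1.20 at E16 (-1.51 ± 0.46). Lhx6 and Lhx8, LIM-homeobox genes of oral mesenchyme, stood at -2.40 and -2.81 at E18, against -0.90 and -1.38 at E16. These 3 genes were thus below E14 at E16 and further below it at E18. Prrx1, a homeobox gene of craniofacial mesenchyme, was 1.20 lower on the brightest of its 6 probes, and those probes ranged from -1.20 to 0.30. Alx1, another homeobox gene, was above background only at E16 and was at least 2.26-fold lower. Msx1 (-0.70) and Barx1 (-0.62) lay under 2-fold. Msx2, which also acts in the epithelium, was the member higher at E18 (3.51 over E14 at E18, against 2.26 at E16, a difference of 1.25 ± 0.52).

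Matrix genes of the mesenchyme had 45 measured members and a median of -0.50. At E18, 8 were at least 2-fold lower and 4 higher, against 0.945% and 0.525% of all genes. Lower were Col8a1, Postn, periostin (-1.74), Col1a2 (-1.55), Col16a1 (-1.45), Col1a1 (-1.33), the crosslinking enzyme Loxl1 (-1.32), Col3a1 (-1.08) and fibromodulin, Fmod (-1.02). Second probes differed in size: Col1a2 gave -0.10 and Col3a1 -0.11 on theirs, and the 3 probes of Col1a1 ranged from -1.33 to -0.54. Higher were Col22a1, Lum (2.14 over E14 at E18, against 0.56 at E16), Col14a1 (2.18 at E18, against 1.10 at E16) and Omd (3.11 at E18, against 2.07 at E16). Lum and Omd encode small leucine-rich proteoglycans of collagen matrices. Among matrix proteases and their inhibitors, 2 of 28 were lower, Htra1 (-1.53) and Timp2 (-1.01), and 0 higher.

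**Figure D3:**
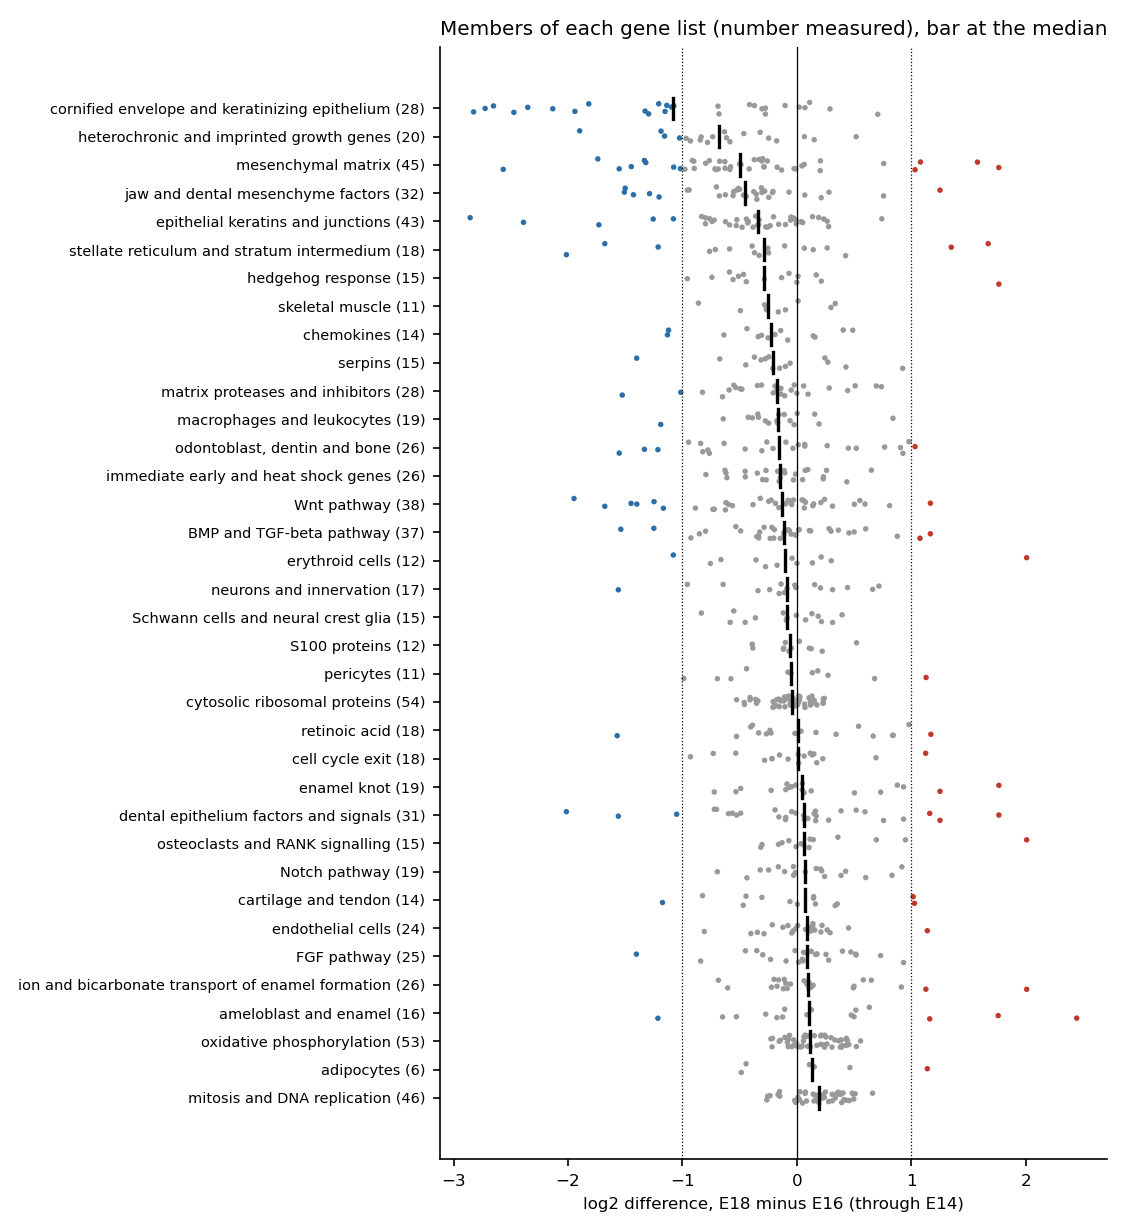
Difference between E18 and E16 in log2 units (x axis) of the measured members of the 36 gene lists (rows, number measured in brackets), ordered by their median (black bar). Red and blue points are members at least 2-fold higher or lower at E18, and the medians run from -1.09 for the keratinizing epithelium to 0.19 for mitosis and DNA replication.

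Genes of ameloblasts and enamel pointed both ways. Of 16 measured members, 3 were at least 2-fold higher at E18 and 1 lower, against 0.525% and 0.945% of all genes. The median was 0.11. The lower one was Dspp, a dentin gene that is also counted in the odontoblast list below and was above background only at E16. Higher were Odam, Adgrf4 and Sp6, a transcription factor of ameloblasts, which stood at 2.80 over E14 at E18, against 1.64 at E16 (1.16 ± 0.42, its second probe 0.63). The enamel matrix genes were not among them. Ambn, ameloblastin, stood at 0.17 at E18, against 0.82 at E16. Amelx, amelogenin, was close to its E14 level at both stages on its brighter probe (-0.17 at E18, against 0.10 at E16), and 1.47 lower on the other. The protease gene Klk4, of the maturation stage, stood at -0.16 at E18, against -0.05 at E16. These probes were dim, with mean log2 signals of 6.27 for Ambn, 6.31 and 6.03 for Amelx and 6.35 for Klk4. The background correction compresses ratios of dim genes, so values near 0 do not show that these genes were unchanged. Enam, enamelin, Mmp20, the secretory-stage protease, and Amtn, amelotin, were not well above background in Cy5 at either stage.

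Of 26 genes of ion and bicarbonate transport in enamel formation, 2 were higher at E18 and 0 lower, against 0.525% and 0.945% of all genes. The 2 were the carbonic anhydrases Car2 and Car13 (1.36 at E18, against 0.24 at E16). The list median was 0.10. Car2 is also a marker of red blood cells and osteoclasts. Alas2 and Slc4a1, further red cell markers, were at 0.14 and -0.36, and the osteoclast markers Acp5, Ctsk and Calcr at 0.36, 0.69 and -0.01. The 12 measured red cell genes ranged from -1.08 to 2.01 with a median of -0.11, and the 15 osteoclast genes from -0.32 to 2.01 with a median of 0.06. Their part in the difference of Car2 was not tested.

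Genes of odontoblasts, dentin and bone had 26 measured members, with 1 at least 2-fold higher (Omd) and 3 lower (Col1a2, Col1a1 and Dspp), and a median of -0.15. Dspp, which encodes the main non-collagen proteins of dentin, was above background only at E16 and at least 2.22-fold lower at E18. Dmp1, a matrix protein of odontoblasts and osteocytes, likewise was at least 1.71-fold lower. Bglap, osteocalcin, stood at 0.48 at E18, against 1.43 at E16, and Ibsp, bone sialoprotein, at 1.32 at E18, against 1.96 at E16. Spp1, osteopontin, went the other way, at 1.51 at E18, against 0.53 at E16, just under 2-fold. Of the regulators, Runx2 was 0.84 lower on the brightest of 4 probes (the range was -0.84 to -0.14), while Sp7, osterix, differed by 0.01 and Alpl, tissue-nonspecific alkaline phosphatase, by 0.27, and the last 2 changed sign between processing settings.

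Among the signals, the hedgehog ligand was higher and its targets were closer to even. Shh was 1.77 higher at E18, while its receptor and target Ptch1 differed by 0.17 (0.98 at E18, against 0.81 at E16) and the target Gli1 by -0.44 (-0.50 at E18, against -0.06 at E16). Of the 15 genes of the hedgehog response, Shh was the one at least 2-fold higher and 0 were lower, with a median of -0.28. Ptch1 changed sign between processing settings and its 2 probes gave -0.25 and 0.17.

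Of 38 measured genes of the Wnt pathway, 6 were at least 2-fold lower at E18 and 1 higher, against 0.945% and 0.525% of all genes. The median was -0.13. The lower ones were mostly secreted modulators: Sfrp2 (-3.63 at E18, against -1.68 at E16) and Sfrp1 (-1.17), which bind Wnt proteins, Dkk2 (-1.40), an antagonist in many settings, and Rspo1 (-1.45), which strengthens the signal. Lgr5, an R-spondin receptor, stood at -2.74 at E18, against -1.06 at E16, and Sp5, a transcriptional target, at -2.42 at E18, against -1.17 at E16. Bambi, a pseudoreceptor of BMP and TGF-beta and a Wnt target, was higher (3.42 at E18, against 2.25 at E16). Axin2, a common readout of the pathway, differed by -0.25, Lef1 by -0.72 and the ligand gene Wnt10a by -0.10.

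BMP and TGF-beta genes had 37 measured members, 2 at least 2-fold higher (Bambi, and Id4 at 1.08) and 2 lower (the activin antagonist Fst at -1.54 and the BMP antagonist Nbl1 at -1.25). The shares over all genes were 0.525% higher and 0.945% lower. Bmp2 and Bmp4 differed by -0.01 and -0.06, and the sign of Bmp2 depended on the setting. Of 25 FGF pathway genes, Fgf18 was at least 2-fold lower (-2.88 at E18, against -1.48 at E16) and 0 were higher. Fgf9 and Fgf3, ligands of the enamel knot and papilla, lay under 2-fold higher (0.93 and 0.73), and Fgf10 differed by 0.02, with a sign that depended on the setting. None of 19 Notch pathway genes was 2-fold apart, against 1.47% of all genes. Hes5 (0.92) and Hey1 (0.83) were at the upper end and Notch3 (-0.69) at the lower end.

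Of 31 factors and signals of the dental epithelium, 3 were higher at E18 (Shh, Msx2 and Sp6) and 3 lower, against 0.525% and 0.945% of all genes. Lower were Sox2, a marker of epithelial stem cells in teeth, which stood at -1.42 at E18, against 0.59 at E16 (-2.01 ± 0.38), Isl1 and Nkx2-3 (-1.05). Edar, the ectodysplasin receptor, lay at -0.49. In the retinoic acid list, 1 of 18 genes was higher and 1 lower, both of them degrading enzymes: Cyp26a1 stood at 3.31 at E18, against 2.14 at E16, and Cyp26b1 at -3.74 at E18, against -2.17 at E16. These 2 related genes thus lay on opposite sides of E14 at both stages and were further apart at E18. Of 19 enamel knot genes, 2 were higher (Shh and Msx2) and 0 lower. The medians of the dental epithelium, enamel knot and retinoic acid lists (0.06, 0.05 and 0.01) changed sign against that of all genes between processing settings.

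In the list of genes of the stellate reticulum and stratum intermedium, the inner cell layers of the enamel organ, 2 of 18 were higher (Vat1l, and Igfbpl1 at 1.35) and 3 lower (Sox2, Lgr5 and the connexin Gjb2 at -1.21).

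Imprinted and heterochronic growth genes in mice are high in the fetus and decline later. Of 20 measured members, 4 were at least 2-fold lower at E18, against 0.945% of all genes, 0 were higher and 16 lay under 2-fold. The median was -0.68, and 17 differences lay below 0. The 4 were the noncoding RNA Meg3 (-2.41 at E18, against -0.52 at E16), the zinc-finger gene Plagl1 (-1.26 at E18, against -0.07 at E16), Mest (-1.57 at E18, against -0.42 at E16) and the noncoding RNA H19 (-1.17 at E18, against -0.14 at E16). Igf2, the fetal growth factor, was 0.84 lower. The 5 probes of Meg3 ranged from -1.90 to -0.05 and the 2 of Plagl1 from -1.19 to -0.42, whereas both probes of H19 were past 2-fold.

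None of 46 genes of mitosis and DNA replication was 2-fold apart, against 1.47% of all genes. A difference above 0 was seen in 37 of the 46, against 48.0% of all genes. The list had a median of 0.19 and a range of -0.26 to 0.66. With median centring the direction turned, to a median of -0.17, and of the 14 lists with a median above 0, 1 had one above 0 in that setting. The mitotic kinase Cdk1 marked the upper end, at 0.83 over E14 at E18, against 0.17 at E16, and Mki67 and Top2a differed by 0.35 and 0.28. Top2a changed sign between processing settings, while the median of the list was above that of all genes in each of them, by 0.15 to 0.25. In the list of cell cycle exit, the cyclin gene Ccnd1 (1.13) was the member higher by 2-fold and the inhibitor Cdkn1c lay lowest (-0.93). Cytosolic ribosomal proteins (54 genes, median -0.05) and oxidative phosphorylation (53 genes, median 0.11) had 0 members 2-fold apart, against 1.47% of all genes.

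**Figure D4:**
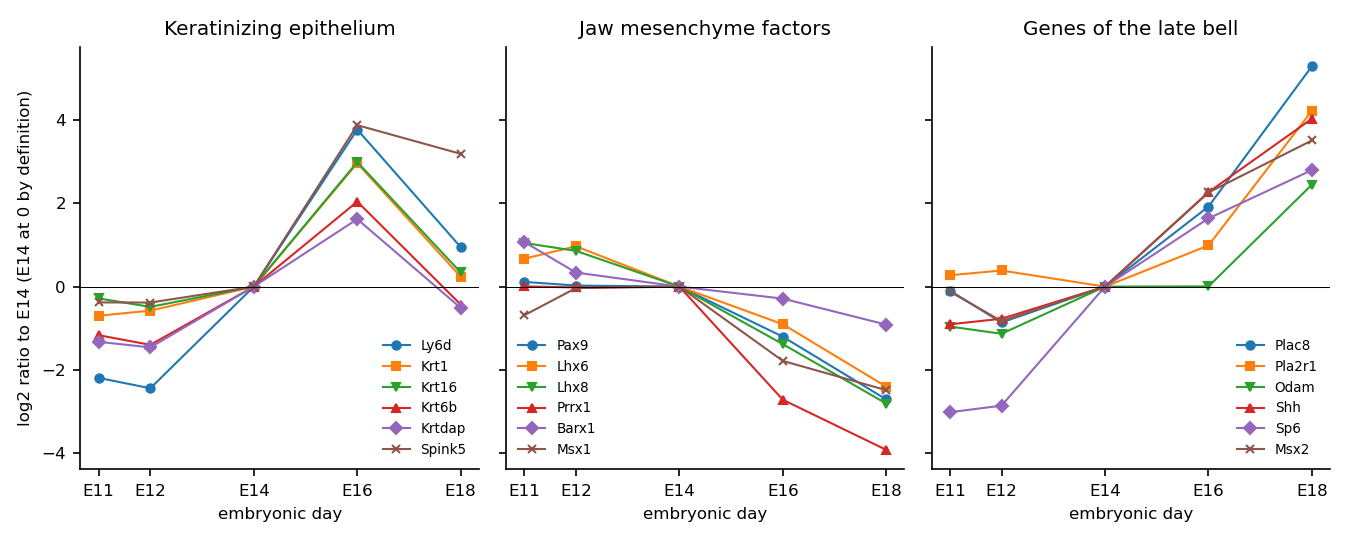
Log2 ratio to E14 (y axis, E14 at 0 by definition) against embryonic day (x axis, E11 to E18) of 6 genes of keratinizing epithelium, 6 factors of jaw mesenchyme and 6 genes of the late bell stage, with 1 pool per stage and straight lines only to guide the eye. Ly6d, Krt1, Krt16, Krt6b and Krtdap are highest at E16. The mesenchyme factors shown are lowest at E18, and the genes in the right panel are highest at E18. The genes were picked with results of these data known, so the patterns are a description. Of the 32 measured jaw factors, 27 were lower at E18 than at E16 and 5 were higher, Msx2 among them.

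Over the whole series of stages, the 85 higher genes had median log2 ratios to E14 that ran from -0.09 at E11 and -0.12 at E12 to 0.65 and 2.08 at the later stages, E16 and E18. The 153 lower genes had medians of -0.70 at E11, -0.40 at E12 and 0.12 at E16, and of -1.20 at E18. E18 and E16 chose these genes, so their own medians are a description, and only the E11 and E12 values come from other arrays. The 6 keratins among the leading lower genes were below E14 at both early stages, from -2.78 for Krt19 to -0.28 for Krt16 at E11 and from -1.98 for Krt6a to -0.49 for Krt16 at E12. Krt4, in contrast, stood near its E14 level, at 0.05 at E11 and -0.06 at E12. Sp6 stood at -3.02 at E11 and -2.86 at E12, against which both later stages were above E14. Pax9 lay at 0.11 at E11 and 0.03 at E12, close to E14, and was below it only from E16.

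Genes that mark other cells of the pools mostly showed small differences. The counts below stand beside 0.525% of all genes at least 2-fold higher at E18 and 0.945% lower. Of 12 measured red cell genes, Car2 was higher and Hbb-y, an embryonic globin, lower (-7.11 at E18, against -6.03 at E16, a difference of -1.08 ± 1.05), and of 24 endothelial genes, 1 was higher, Fabp4 (1.14), which adipocytes also express. The endothelial markers Pecam1, Cdh5, Kdr and Emcn lay between -0.08 and 0.27. Of 19 genes of macrophages and leukocytes, 1 was lower, Pf4 (-1.19), with Csf1r, Cd68, Adgre1 and C1qa between -0.39 and -0.02. Of 14 genes of cartilage and tendon, Hapln1 (1.02) and Matn4 (1.03) were higher and Sox6 lower (-1.17), while Col2a1, Acan and Sox9 lay at -0.45, 0.16 and 0.15. Of 11 pericyte genes, Rgs5 (1.13) was higher, and of 17 neuronal genes, Isl1 was lower. The neuronal markers Tubb3, Stmn2 and Elavl4 were at 0.44, 0.66 and 0.16, but 11 of the 17 lay below 0 and 6 above. The median of the neuronal list was -0.09. None of 11 muscle genes and none of 15 Schwann cell genes was 2-fold apart, against 1.47% of all genes. The defining markers Myod1, Myog and Plin1 were not well above background in Cy5 at E18 or at E16.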

How the data were processed

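The authors deposited, for each array, linear intensity values per spot, flags and a log10 ratio of Cy5 over Cy3, which per the file headers came from Agilent Feature Extraction 10.5.1.1. A second deposited table, of the whole series, matched that log10 column for 100% of its values on each array, with column medians of 0.

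Log2 ratios were made here from the intensities in limma 3.58.1 (R 4.3.3). The normexp background correction (offset 50) compresses the ratios of dim genes, and each array was normalized by loess with control spots at weight 0. Outlier-flagged spots (92 to 126 per array) were left out, none was saturated, and spots of a probe were averaged. A 2-fold limit replaced a test, since each stage was 1 pool, and the number of arrays limits the precision. E18 and E16 shared a slide and a scan. The code was also run on a simulated pair, the E16 array and a noisy copy of it with known changes. That pair has no difference in brightness between arrays, so it cannot show how such a difference affects the counts.

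Names of 16337 measured probes came from their accession in a RefSeq table (GRCm38.p6, names only), of 3406 from the symbol, of 1587 from a synonym and of 2720 from the file itself. A bound is the smaller of 2 forms: the Cy5 ratio against the lowest signal above background (or the dim probe's own, where higher), and the same corrected by the E14 channels. Scanner error is left out of it, so "at least" refers to the signals as measured. The second form was added after some spots were seen to be bright in both channels of 1 array.

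The text names the 15 largest differences and the 8 largest bounds in each direction, up to 4 members from the ends of each list and a set of tooth genes. Other members past 2-fold were named after their values were seen. Members and lists were chosen with earlier results of these data known.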

Additional observations from a re-analysis of the deposited data

How the results depend on the processing

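The 85 genes higher and 153 lower at E18 became 518 and 888 with the log ratios of the scanner software 150 and 240 with an offset of 16, 123 and 213 without background correction, and 517 and 887 from the deposited value table. Median centring gave 43 and 616, the Cy5 channels alone, without E14, 141 and 216, and a 1.5-fold limit 329 and 575. Probes above background on both arrays gave 82 and 141, and the mean over a gene's probes 72 and 119. Of the 85 and 153 genes, 82 and 151 were shared with the scanner's ratios, 41 and 153 with median centring and 81 and 145 with Cy5 alone. Except for the limit, the filter and the mean over probes, the cause of these shifts was not tested. No count reversed. Of 47 named genes past 2-fold, 41 stayed past it under all alternatives run. The exceptions were Sp6 (0.86) and Msx2 (0.88) with median centring, and Sp6 (0.89), Ptprz1 (-0.60), Col4a6 (-0.90), Col1a1 (-0.97) and Prrx1 (-0.47) with the mean over probes. Of 570 values of named genes under these alternatives, 257 moved by less than 0.093 log2 units and 313 did not. That limit is the SD of the E14 channel difference, which compares single channels and is not a like measure for ratios. Of 252 list medians set against that of all genes, 202 moved by less than this limit and 50 did not. The sign changed for the S100, Schwann cell, cell cycle exit, ribosomal, dental epithelium, enamel knot, neuron, pericyte and retinoic acid lists. The keratinizing list ranged from -2.25 to -0.94. No paired analysis was possible because each stage was 1 pool. Dim signals limit the low end: 1601 genes stood above background on 1 array only.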

Other observations

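Among lists that the text above does not describe, 2 of 14 chemokine genes were at least 2-fold lower at E18, Cxcl12 (-3.18 over E14 at E18, against -2.05 at E16) and Cx3cl1 (-1.59 at E18, against -0.47 at E16), and 0 were higher. Cxcl12, a stromal chemokine that guides migrating cells, had a second probe at -0.23. Of 15 serpins, Serpinb1a was lower (0.06 at E18, against 1.46 at E16) and 0 were 2-fold higher. None of 12 S100 genes and none of 26 immediate early and heat shock genes was 2-fold apart, against 1.47% of all genes. Fos, at -0.80, was the lowest of the second list.

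Genes of the Y chromosome were lower in the E18 pool. Eif2s3y was at least 3.19-fold lower at E18 and Ddx3y at least 2.37-fold, and Kdm5d at least 1.44-fold, all 3 above background only at E16. Xist, the noncoding RNA of the inactive X chromosome, stood at -0.13 over E14 at E18, against -0.37 at E16. The sex of the pooled embryos is not stated in the labels, and its part in other differences was not tested.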
